A study of Gallus gallus with 4 samples.

Results

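Globin-rich barcodes were the droplet barcodes that carried red blood cell transcripts in single-cell RNA-seq libraries of chick retina. A barcode was taken when its UMIs (unique molecular identifiers, each a counted RNA molecule) of HBA1, HBAD, HBBA, HBE1 and HBZ summed to at least 20 and when at most 5% of its UMIs came from the 13 protein-coding mitochondrial genes. The rule named 6 globin genes, and 5 of them were in the count tables, in which HBE was not listed. It found 115 globin-rich barcodes among 36389 barcodes under the mitochondrial limit, of 41286 barcodes in all, and the remaining 36274 are called other barcodes. These barcodes were chosen by their globin counts, so their globin values are given as a description without a test.

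The study followed Müller glia of wild-type leghorn chicks in damaged retinas with and without microglia. The 4 groups had 1 library each, and the number of retinas in a library is not given in the sources used here. The clodronate+NMDA group received clodronate liposomes, which deplete microglia and macrophages, in the eye at postnatal day 6 and NMDA, an excitotoxin that kills retinal neurons, at day 10. The NMDA group received saline and then NMDA, the clodronate+saline group received clodronate liposomes and then saline, and the saline group received saline on both days. Retinas were collected 24 h after the last injection in all groups. With 1 library per group, no difference between treatments was tested, and every interval between libraries below covers counting error only.

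Birds keep the nucleus in circulating red blood cells, so these cells hold chromatin and some RNA and can be captured in droplets like any other cell. Their hemoglobin joins alpha-type chains, made from HBA1 and HBAD, to beta-type chains, which in hatched birds come mainly from HBBA, whereas HBE1 and HBZ are embryonic genes. The avian retina has no blood vessels of its own and is supplied from the choroid and the pecten, a vascular fold that projects into the vitreous. In GRCg7b, the build named in the submitters' processing notes, RefSeq places HBA1 on chromosome 14 from 12118602 to 12119420, next to HBAD from 12115577 to 12116504 and HBZ from 12111897 to 12113528. HBBA lies on chromosome 1 from 196004356 to 196005887 and HBE1 from 196007679 to 196008907. The globin genes of a cluster resemble each other, so the split of UMIs among them is uncertain to the extent that reads matched several of them.

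The libraries held between 8050 and 11434 barcodes and between 20614413 and 27033560 UMIs in all, and no barcode had fewer than 500 UMIs. Between 101 and 214 barcodes were present in any pair of libraries, and no barcode was globin-rich in both libraries of a pair. Doublets were neither called nor removed. Among other barcodes, globin UMIs were also found in 8 of 6940 barcodes of the clodronate+NMDA library (0.115%), 1219 of 9462 of the NMDA library (12.9%), 56 of 9899 of the clodronate+saline library (0.566%) and 107 of 9973 of the saline library (1.07%). The part of free globin RNA in the counts below was not tested.

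Globin-rich barcodes were 1 of 6941 in the clodronate+NMDA library, which is 0.0144% (95% exact binomial interval 0.000365 to 0.0802%). They were 102 of 9564 in the NMDA library, 1.07% (0.870 to 1.29%). The clodronate+saline library held 7 of 9906, 0.0707% (0.0284 to 0.146%), and the saline library 5 of 9978, 0.0501% (0.0163 to 0.117%). The NMDA library thus held 88.7% of all globin-rich barcodes. Its share was 21.3 times that of the saline library (interval 8.83 to 66.9), and the share of the clodronate+NMDA library was 0.0135 times that of the NMDA library (0.000339 to 0.0770). The clodronate+saline and saline libraries did not differ beyond counting error, with a ratio of 1.41 (0.385 to 5.63), and neither did the clodronate+NMDA and clodronate+saline libraries, with a ratio of 0.204 (0.00452 to 1.59). With 1 library per group, the treatment and the library cannot be told apart.

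Globin counts ran on across the rule's threshold. Just inside it, 7 barcodes of the NMDA library had 20 to 24 globin UMIs, with between 527 and 10667 UMIs in all. Just outside it, 4 barcodes of the NMDA library had 15, 16, 18 and 19 globin UMIs, and 1 barcode of the clodronate+NMDA library had 15. A further 4 barcodes with at least 20 globin UMIs were above the mitochondrial limit, 2 in the NMDA library and 2 in the saline library. Globin-rich barcodes were shallow. Their median depth was 605 UMIs in clodronate+NMDA, 1036.5 in NMDA, 899 in clodronate+saline and 985 in saline, against 1814.5, 1532, 1595 and 1347 UMIs in other barcodes of the same 4 libraries. Of the 115, 37 had under 750 UMIs, close to the lowest depth in the files, and barcodes below that depth were not analysed here.

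H1F0, for which RefSeq lists the name H5 (the linker histone that packs the chromatin of avian erythrocytes), gave a count that did not use the globins. Barcodes with at least 3 H1F0 UMIs were 2 of 6941 in clodronate+NMDA (0.0288%, interval 0.00349 to 0.104%), 97 of 9564 in NMDA (1.01%, 0.823 to 1.24%), 6 of 9906 in clodronate+saline (0.0606%, 0.0222 to 0.132%) and 5 of 9978 in saline (0.0501%, 0.0163 to 0.117%). As by the globins, the NMDA library stood highest. The other libraries rested on 2, 6 and 5 barcodes with overlapping intervals, so their order is not read. With at least 5 H1F0 UMIs the counts were 1, 81, 4 and 4 in clodronate+NMDA, NMDA, clodronate+saline and saline. The 1 barcode of clodronate+NMDA was then not a globin-rich one. Of the 97 barcodes in the NMDA library, 88 were globin-rich, 7 more had 5 to 19 globin UMIs and 2 had fewer than 5.

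**Figure D1:**
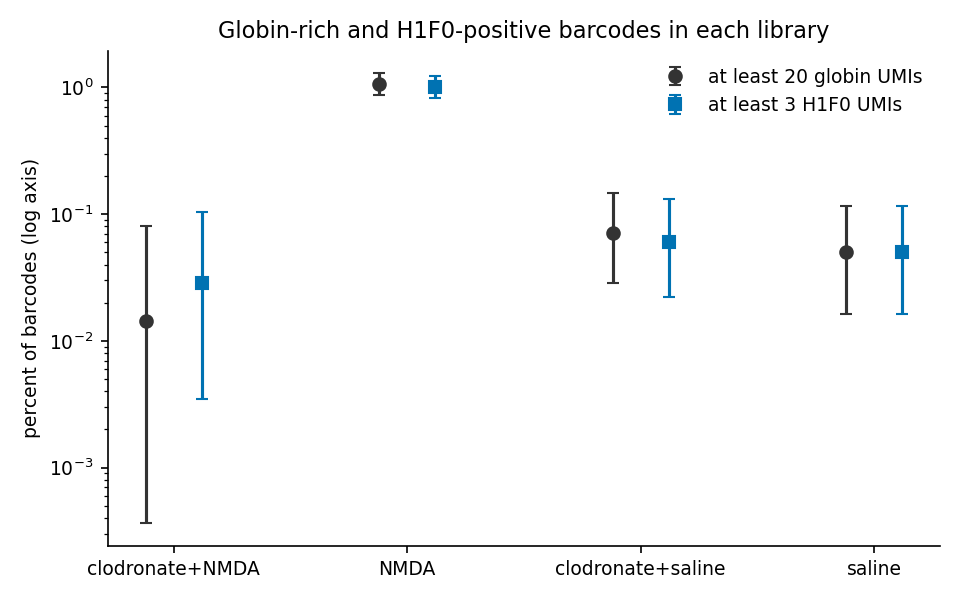
Percent of barcodes (log axis) that were globin-rich (circles) and that had at least 3 H1F0 UMIs (squares) in each of the 4 libraries, with 95% exact binomial intervals for counting error. The NMDA library stands at 1.07% and 1.01%, and the other libraries lie between 0.0144% and 0.0707%.

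Globin content ranged widely from barcode to barcode. The single globin-rich barcode of clodronate+NMDA had 130 globin UMIs, 21.5% of its UMIs. In NMDA the lowest, median and highest counts were 20, 108.5 and 6052 globin UMIs, and globins made up 0.225, 10.5 and 84.3% of a barcode's UMIs. In clodronate+saline the 7 barcodes had 1003, 500, 336, 132, 101, 57 and 26 globin UMIs. In saline the 5 barcodes had 2628, 379, 111, 201 and 105 globin UMIs. The counts of the other 3 libraries all lay within the range of NMDA. Globins made up at least 50% of the UMIs in 18 barcodes of NMDA, 1 of clodronate+saline and 1 of saline, and 10 to 50% in 1, 37, 4 and 4 barcodes of the clodronate+NMDA, NMDA, clodronate+saline and saline libraries. In 47 barcodes of NMDA and 2 of clodronate+saline they made up under 10%.

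HBA1 was the leading globin in every library. It gave 80.0% of globin UMIs in the globin-rich barcode of clodronate+NMDA, 58.1% in those of NMDA, 67.2% in clodronate+saline and 57.7% in saline. HBAD gave 10.0, 17.5, 13.2 and 23.6% and HBBA 10.0, 24.3, 19.5 and 18.8% in the same order of libraries. HBE1 was present at 26 of 69475 globin UMIs in NMDA, spread over 13 barcodes, and at 0 in the other libraries. HBZ had 1 UMI in clodronate+saline and 0 elsewhere.

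The makeup of the globins was also given by globin share. In NMDA, HBAD was 18.7% of globin UMIs in the 18 barcodes with at least 50% globins, 13.7% in the 37 with 10 to 50% and 8.52% in the 47 with under 10%, given as a description because the classes were cut by the globins themselves. HBA1 went the other way, with 56.1, 64.9 and 71.6% in these classes. Other barcodes of the NMDA library, of which 1210 of the 1219 with a globin UMI had 1 to 4, had 15.9% HBAD and 62.6% HBA1. Over the 53 NMDA barcodes with at least 100 globin UMIs, Spearman's rho between the globin share and the HBAD share of globins was 0.71, given as a description because the barcodes come from 1 library. In saline, 1 barcode stood apart with 77 HBAD, 70 HBA1 and 54 HBBA UMIs, the only one of the 5 in which HBAD exceeded HBA1. That barcode also had 264 of its 874 non-globin UMIs in cytosolic ribosomal protein genes (30.2%), against 6.70 to 10.6% in the other 4.

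**Figure D2:**
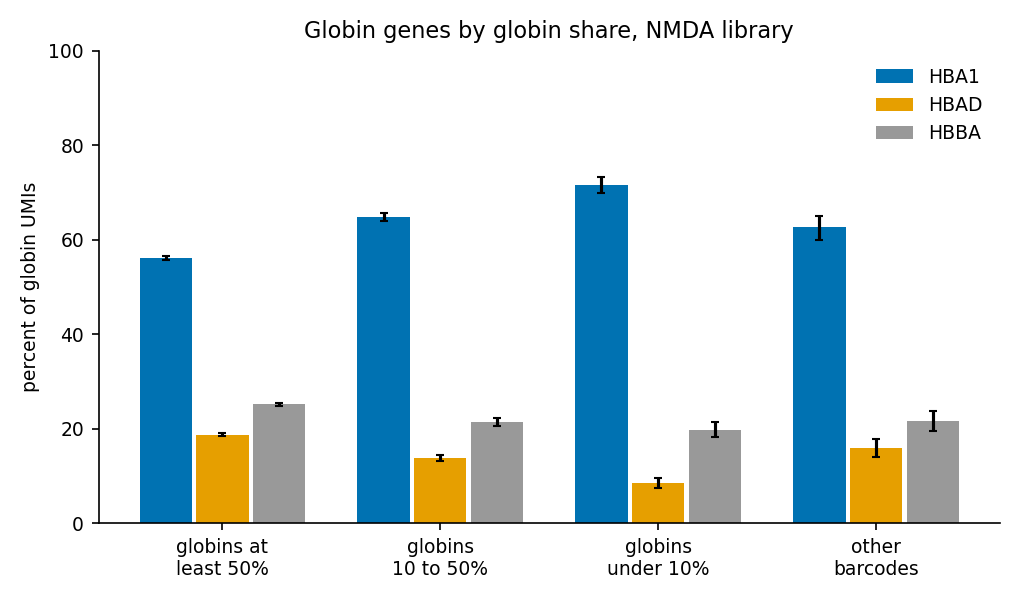
Percent of globin UMIs from HBA1, HBAD and HBBA in the NMDA library, for globin-rich barcodes with globins at least 50%, 10 to 50% and under 10% of their UMIs (n = 18, 37 and 47) and for other barcodes. Bars are summed counts with 95% exact binomial intervals for counting error only, and HBAD stands at 18.7, 13.7, 8.52 and 15.9%.

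To describe the rest of the transcriptome, UMIs of each gene were summed over globin-rich and over other barcodes of each library, the rule's globins were left out, and edgeR's quasi-likelihood test with the library as a term was run on 14416 genes. At a false discovery rate (FDR, Benjamini-Hochberg) under 0.05, 550 genes were higher in globin-rich barcodes (3.82% of the genes tested) and 184 were lower (1.28%). Of the 550, 250 had at least 20 UMIs summed over all globin-rich barcodes and 300 had fewer. The 4 libraries stood in as replicates although each had another treatment, and 93.3% of the non-globin UMIs of globin-rich barcodes came from the NMDA library. Of the higher genes, 49 were higher in all 4 libraries. In the 1 globin-rich barcode of clodronate+NMDA a single UMI could count as higher, as for BF2, TAPBP and RIPOR3. TAPBP and CMPK2 also had 1 UMI each in clodronate+saline and in saline, and RIPOR3 had 1 in saline. Genes with 0 UMIs in that barcode, such as RHAG and TAL1, could not be among the 49. Globin-rich barcodes of clodronate+NMDA, clodronate+saline and saline held 475, 4817 and 3416 non-globin UMIs, and a gene with 0 UMIs there counts as lower, so nothing is read from the sign of lower genes across libraries. Levels below are CPM, the UMIs of a gene per 1000000 non-globin UMIs. Calls were 74.9% higher, but DESeq2 with its own size factors gave 74 higher and 299 lower genes, 19.8% higher, with an adjusted p for 1839 genes. The median log2 fold change over all genes was 0.84 higher with DESeq2, which also differs in its model and filter, and 0.42 lower with a TMM factor for each sum in edgeR (a shift of -0.42). Without the NMDA library edgeR called 50 higher and 69 lower.

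H1F0 had the largest fold change of the higher genes with the same sign in all 4 libraries, of which the 15 largest with a symbol are named. The globin-rich barcode of clodronate+NMDA had 4 H1F0 UMIs. Those of NMDA had a lowest, median and highest count of 0, 7 and 31, with at least 1 UMI in 99 of 102 barcodes, against 41 of 9462 other barcodes (0.433%). Those of clodronate+saline had 14, 4, 14, 9, 4, 2 and 11, and those of saline 16, 13, 1, 9 and 4. All 115 globin-rich barcodes held H1F0 except 3 in the NMDA library. In CPM, H1F0 stood at 8421, 7344, 12041 and 12588 in globin-rich barcodes of clodronate+NMDA, NMDA, clodronate+saline and saline, against 0.877, 4.30, 0.858 and 1.02 in other barcodes. The edgeR log2 fold change was 12.68 ± 0.65 (SE, 4 libraries, FDR 7.3e-14, higher in 4 of 4 libraries). Each SE here and below is the fold change divided by the square root of the test's F statistic. It is not a spread measured between the libraries. With every barcode of NMDA thinned to 300 non-globin UMIs, 80.4% of globin-rich barcodes still had an H1F0 UMI, against 0.148% of other barcodes, from median depths of 780.5 and 1532 non-globin UMIs.

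**Figure D3:**
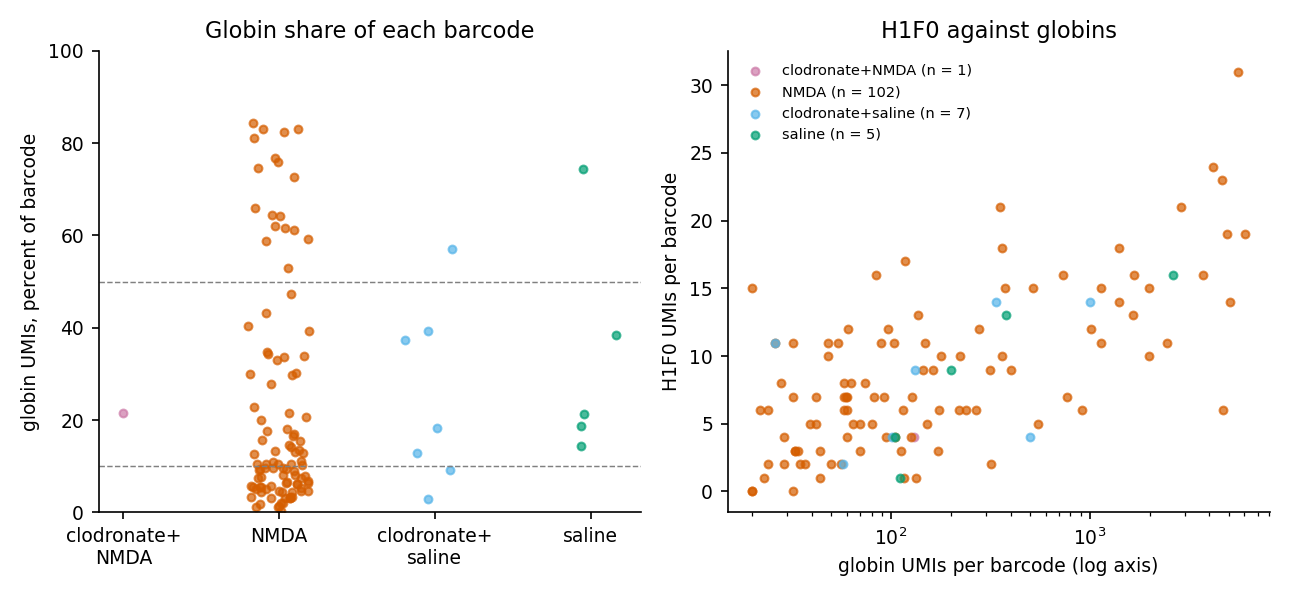
Left, globin UMIs as percent of all UMIs of each globin-rich barcode in the 4 libraries, with dashed lines at 10% and 50%. Right, H1F0 UMIs against globin UMIs (log axis) of the same barcodes, colored by library (n = 1, 102, 7 and 5), where the barcodes of the other libraries lie within the range of those of NMDA and H1F0 reaches 31 UMIs.

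Of the erythroid transcription and chromatin list, 5 of 9 genes tested were higher in globin-rich barcodes and 0 lower, and the list's median log2 fold change was 3.15, against -0.63 over all genes tested. Besides H1F0 these were TAL1 and NFE2, transcription factors of the red cell lineage, and LMO2 and LDB1, adaptors in a complex with TAL1 in mammals. In NMDA, TAL1 had 87 UMIs in globin-rich barcodes and 32 in the 9462 other barcodes, 716 against 1.27 CPM, and was seen in 53 of 102 globin-rich barcodes. NFE2 had 30 and 38 UMIs there, 247 against 1.51 CPM. LMO2 stood at 206 against 11.4 CPM and LDB1 at 222 against 50.8 CPM, each higher in 2 of 4 libraries. Both lost the call without NMDA and with members of at least 50% globins, and LDB1 also with DESeq2 and with a TMM factor for each sum. The log2 fold changes by edgeR were 9.34 ± 0.22 for TAL1 (FDR 9.7e-21) and 7.49 ± 0.25 for NFE2 (FDR 8.5e-18), each higher in 3 of 4 libraries. In NMDA alone, the counting intervals of the ratio were 371- to 872-fold for TAL1 and 97.7- to 271-fold for NFE2. The clodronate+NMDA barcode, with 475 non-globin UMIs, had 0 UMIs of both genes.

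Of the membrane and skeleton list, 10 of 18 genes tested were higher and 1 was lower, with a median log2 fold change of 1.90. They were RHAG and RHCE, membrane proteins of the Rh complex, SLC4A1, the anion exchanger band 3, ANK1, SPTB, EPB41, EPB42, DMTN and TMOD4, parts of or anchors to the membrane skeleton, and CA2, the carbonic anhydrase that red cells use in carbon dioxide transport. RHAG was nearly absent from other barcodes. It had 0, 40, 3 and 1 UMIs in those of clodronate+NMDA, NMDA, clodronate+saline and saline, against 0, 1, 1 and 0 UMIs in other barcodes of the 4 libraries. In NMDA its level was 8272 times that of other barcodes, with a counting interval of 1402 to 334787 because other barcodes had 1 UMI. EPB42 had 14 UMIs against 1 in that library, and SLC4A1 16 against 19. With DESeq2, 2 genes of the list were higher and 1 lower, and without the NMDA library 1 of 14 was higher. DESeq2 gave an adjusted p for 37 of the 66 genes named as called, and a gene without one was not assessed by it. EPB41 and DMTN lost the call with DESeq2 and with a TMM factor for each sum, and were -0.053 and -0.93 without NMDA. ANK1 and SPTB lost it without NMDA, and RHCE with the robust spread (edgeR FDR 0.11).

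CA2 was also abundant in other barcodes, and its contrast was smaller. It stood at 0, 3499, 10380 and 8782 CPM in globin-rich barcodes of clodronate+NMDA, NMDA, clodronate+saline and saline, against 459, 561, 1180 and 3379 CPM in other barcodes. The log2 fold change by edgeR was 2.37 ± 0.40 (FDR 2.2e-04), higher in 3 of 4 libraries. The call was lost without the NMDA library, with DESeq2 and with a TMM factor for each sum. AQP1, a water channel that mammalian red cells carry in quantity, was the only lower gene of this list. It had 0 UMIs in globin-rich barcodes of all 4 libraries, against 205, 1425, 828 and 808 UMIs in other barcodes, which in NMDA was at least 2.30-fold lower by the limit of 3 UMIs.

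Of the heme and iron list, 7 of 22 genes tested were higher and 0 lower, with a median log2 fold change of 1.05. FTH1, the heavy chain of the iron store ferritin, was among the most abundant non-globin transcripts, with 52632, 30181, 36330 and 38349 CPM in globin-rich barcodes of clodronate+NMDA, NMDA, clodronate+saline and saline, against 2246, 3729, 1992 and 2538 CPM in other barcodes. Every globin-rich barcode held it, with 9, 33.5 and 82 UMIs as the lowest, median and highest in NMDA. Its edgeR log2 fold change was 3.92 ± 0.28 (FDR 6.0e-11, higher in 4 of 4 libraries). SLC25A37, the mitochondrial iron importer mitoferrin, had 25 UMIs in NMDA, 206 against 5.18 CPM. TFRC, the transferrin receptor, was at 173 against 65.6 CPM there. SLC25A39, ABCB10, GLRX5 and IREB2 were the other 4, with log2 fold changes between 1.27 and 2.77 by edgeR. With DESeq2, 2 genes of the list were higher, and without the NMDA library 2 of 22. Here too, genes without an adjusted p in DESeq2 were not assessed by it. TFRC, SLC25A39, ABCB10, GLRX5 and IREB2 lost the call without NMDA, where GLRX5 turned to -0.85, and GLRX5 (log2 fold change 0.088) and TFRC lost it with DESeq2 and with a TMM factor for each sum. SLC25A37 lost it with the robust spread (edgeR FDR 0.088). No gene of this list or of the transcription list was lower with DESeq2 or at an unadjusted p under 0.05 by edgeR, where the count was also 0. The enzymes ALAS1, the entry step of heme synthesis, UROD and FECH had 3, 7 and 2 UMIs in globin-rich barcodes of NMDA and did not pass the test. ALAS2, also on the list, was not in the count tables under its own symbol. RefSeq paired that name with ALAS1, so ALAS2 could not be read apart.

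Of the list for clearance, redox and metabolism, 4 of 13 genes tested were higher, with a median log2 fold change of 0.29. GPX1, a glutathione peroxidase that removes peroxide, stood at 0, 3878, 4567 and 7319 CPM in globin-rich barcodes of clodronate+NMDA, NMDA, clodronate+saline and saline, against 174, 265, 102 and 127 CPM in other barcodes (edgeR log2 fold change 4.85 ± 0.48, FDR 3.6e-08, higher in 3 of 4 libraries). CAT, which encodes catalase, IPMK, an inositol phosphate kinase, and BPGM, which makes the main phosphate ligand of hemoglobin in mammalian red cells, had 11, 13 and 20 UMIs in globin-rich barcodes of NMDA. CAT, IPMK and BPGM lost the call without the NMDA library. BNIP3L, a receptor for mitochondrial clearance, stood at 0, 370, 415 and 2635 CPM against 183, 214, 297 and 288 CPM and did not pass (FDR 0.085 by edgeR).

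**Figure D4:**
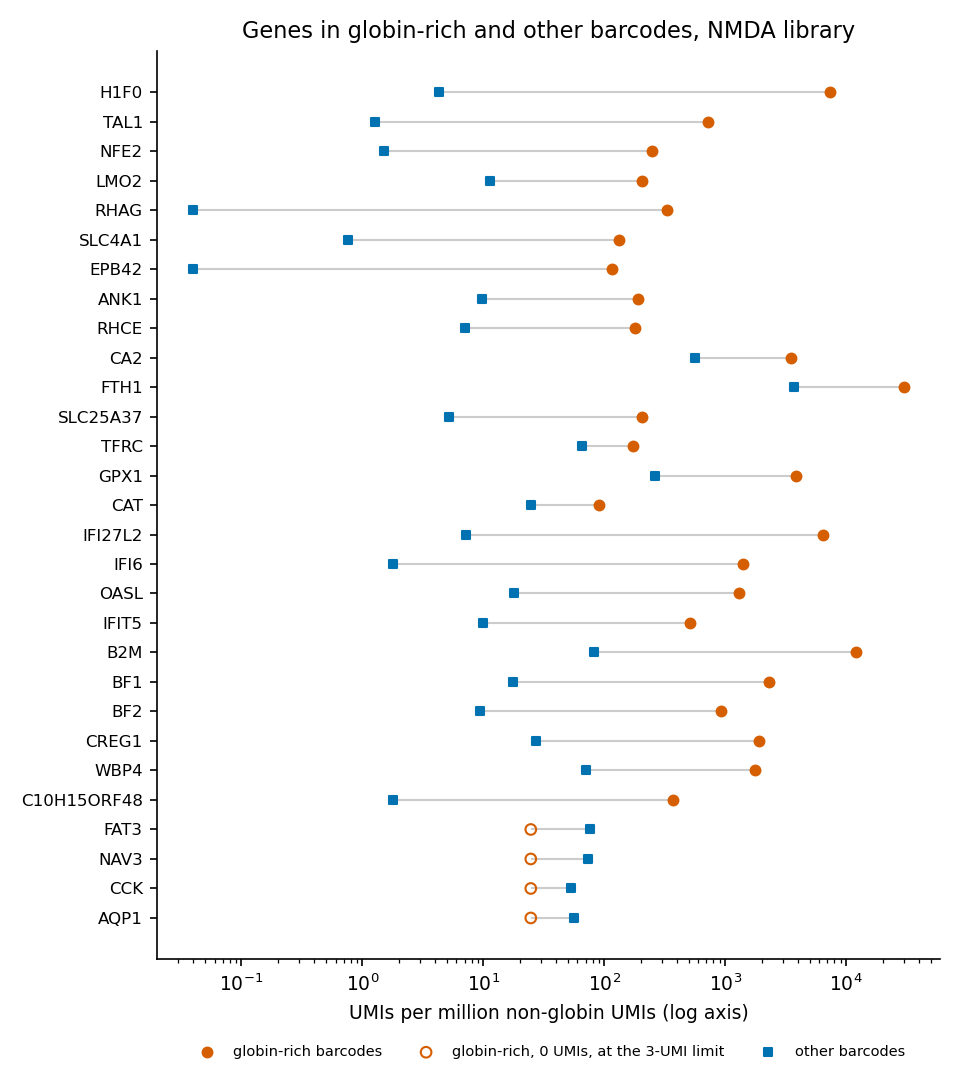
CPM (log axis) of 29 genes in globin-rich (circles, n = 102) and other (squares, n = 9462) barcodes of the NMDA library, summed over barcodes. Open circles mark genes with 0 UMIs in globin-rich barcodes, drawn at the limit of 3 UMIs, and H1F0 stands at 7344 against 4.30 CPM.

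Of the 15 higher genes named by size, 4 serve antigen presentation by MHC class I. B2M, the light chain of MHC class I, stood at 23158, 12020, 18269 and 17564 CPM in globin-rich barcodes of clodronate+NMDA, NMDA, clodronate+saline and saline, against 66.1, 82.4, 189 and 82.7 CPM in other barcodes (edgeR log2 fold change 7.43 ± 0.39, FDR 1.4e-13). All 102 globin-rich barcodes of NMDA had at least 1 B2M UMI, with a median of 14 and a highest count of 34. BF1 and BF2, the chicken class I heavy chain genes, stood at 2280 against 17.6 CPM and 930 against 9.47 CPM in NMDA. Both genes resemble each other, so their split is uncertain. TAPBP, tapasin, which loads peptides onto class I molecules, stood at 370 against 13.5 CPM in NMDA. Its counting interval was 0.126- to 27.8-fold in clodronate+saline and 0.712- to 159-fold in saline, from 1 UMI each. These were named by the size of their change and were on no list.

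IFI27L2, a member of the ISG12 family of interferon-inducible genes, was second to H1F0 among the genes named by size, with a log2 fold change of 9.92 ± 0.58 by edgeR (FDR 1.3e-12). It had 4 UMIs in the globin-rich barcode of clodronate+NMDA. In NMDA it had 0, 7 and 28 UMIs as the lowest, median and highest, and was present in 98 of 102 barcodes. In clodronate+saline the 7 barcodes had 33, 11, 8, 12, 4, 6 and 8, and in saline the 5 had 8, 8, 1, 0 and 15. Its levels were 8421, 6454, 17023 and 9368 CPM, against 16, 7.25, 40.4 and 2.19 CPM in other barcodes. The remaining higher genes named by size, besides FTH1, were CREG1 (1885 against 27.5 CPM in NMDA), WBP4 (1754 against 70.5), NFE2L2, a transcription factor of the oxidative stress response (700 against 53.9), TMEM14C, needed for heme synthesis in mouse (659 against 47.8), CA13, another carbonic anhydrase (585 against 27.1), RIPOR3 (461 against 29.2), C10H15ORF48 (370 against 1.79) and CMPK2, a mitochondrial nucleotide kinase (222 against 4.34). CMPK2, TAPBP and RIPOR3 lost the edgeR call without the NMDA library, and CMPK2 and C10H15ORF48 with a robust estimate of the spread.

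Of the interferon-stimulated list, 8 of 9 genes tested were higher, with a median log2 fold change of 3.84, namely IFI6, OASL, IFIT5, RSAD2, IFIH1, IRF7, USP18 and EIF2AK2, which take part in antiviral responses. Unlike IFI27L2 or B2M, these UMIs were concentrated in few barcodes. The 10 genes of the list found in the files summed to 0 UMIs in the barcode of clodronate+NMDA. In NMDA, 39 of 102 globin-rich barcodes had 0, the median was 1, and the 5 highest had 85, 73, 67, 35 and 23 UMIs, 63.6% of the 445 in that library. In clodronate+saline the 7 barcodes had 24, 13, 1, 4, 1, 0 and 3. In saline they had 2, 1, 0, 1 and 65, so 1 barcode gave 94.2% of the UMIs. In other barcodes the list stood at 212, 107, 470 and 70.0 CPM in clodronate+NMDA, NMDA, clodronate+saline and saline. OASL alone stood at 224 CPM in other barcodes of clodronate+saline, against 1.63 CPM in those of saline. With a robust estimate of the spread in edgeR, 3 of the 9 genes passed, and without the NMDA library 3 passed.

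**Figure D5:**
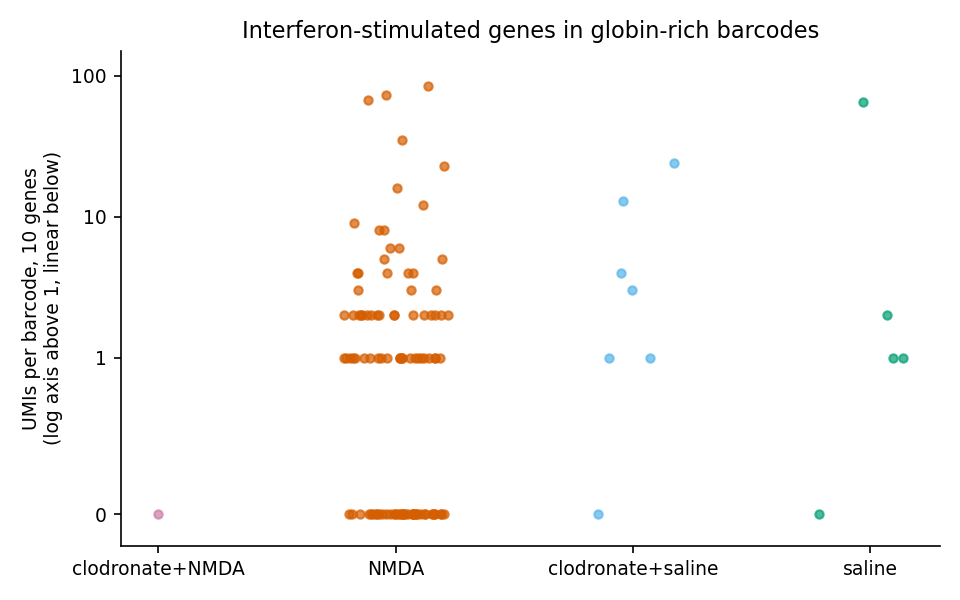
Summed UMIs of 10 interferon-stimulated genes in each globin-rich barcode of the 4 libraries (log axis above 1, linear below). Most barcodes lie at 0 to 2, whereas 5 barcodes of NMDA reach 23 to 85, 1 of clodronate+saline reaches 24 and 1 of saline reaches 65.

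Of the 26 erythroid genes called higher, 20 had their highest CPM in NMDA in the barcodes with at least 50% globins. The other 6, CAT, GLRX5, IREB2, LDB1, LMO2 and TFRC, had it in another class, each from at most 18 UMIs in a class. Counts were also low for some of the 20, such as ABCB10 with 9 and TMOD4 with 10 UMIs over all globin-rich barcodes of NMDA. The share of all genes with this order was not computed. The classes were cut by the globins, so the 20 of 26 is a description only. H1F0 stood at 14167 CPM in barcodes with at least 50% globins, 9696 CPM with 10 to 50%, 4038 CPM with under 10% and 4.30 CPM in other barcodes. CA2 stood at 11814, 3658, 871 and 561 CPM and GPX1 at 10000, 4790, 1531 and 265 CPM in the same order. RHAG stood at 1128, 435, 30.0 and 0.0398 CPM. TFRC had 1, 10 and 10 UMIs in the 3 classes of globin-rich barcodes, and stood at 290 CPM with 10 to 50% globins, 150 CPM with under 10% and 65.6 CPM in other barcodes. Of genes outside these lists, B2M stood at 11422, 17389, 9427 and 82.4 CPM and CREG1 at 1275, 2526, 1741 and 27.5 CPM. Over the 53 NMDA barcodes with at least 100 globin UMIs, Spearman's rho between the globin share and the share of non-globin UMIs was 0.75 for CA2, 0.72 for GPX1, 0.54 for H1F0, 0.46 for IFI27L2, 0.30 for FTH1 and -0.10 for B2M. These are descriptions over barcodes of 1 library.

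Of 65 cytosolic ribosomal protein genes, 5 were higher in globin-rich barcodes by edgeR and 0 lower (11 higher and 0 lower at an unadjusted p under 0.05), whereas DESeq2 called 0 higher and 6 lower. Over all genes tested, 3.82% were higher. RPL22, RPL23A, RPL29, RPLP1 and RPS27L had log2 fold changes between 1.14 and 1.80. Of 15 alternatives, RPLP1 kept the call in 4, RPS27L in 6, RPL22 in 7, RPL29 in 10 and RPL23A in 11. In NMDA, the 3 barcodes with at least 5000 non-globin UMIs held 1420, 870 and 509 of the 11928 ribosomal UMIs. Globins made up 1.91, 3.24 and 0.225% of the UMIs of these 3 barcodes. RPL23A, the largest of the 5, stood at 6316, 4330, 3114 and 5562 CPM in globin-rich barcodes of clodronate+NMDA, NMDA, clodronate+saline and saline, against 1282, 1450, 1135 and 1281 CPM in other barcodes.

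Markers of other blood and vascular cells were at or near 0. In globin-rich barcodes of NMDA, 3 of 9 thrombocyte genes had a UMI (5 UMIs in all), 3 of 10 microglia and macrophage genes (3 UMIs), 1 of 8 lymphocyte and granulocyte genes (2 UMIs) and 2 of 9 endothelial and mural genes (5 UMIs). In the other 3 libraries globin-rich barcodes had 0 UMIs of all 4 lists. In the same order of lists, 4, 8, 2 and 4 genes were tested by edgeR, and 0 were called higher or lower. These low counts therefore do not set globin-rich barcodes apart from other barcodes.

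Markers of retinal cell types were present in globin-rich barcodes. The 39 genes of the retinal lists, without VIM, which avian red cells also make, summed to 0, 5211, 4360 and 6733 CPM in globin-rich barcodes of clodronate+NMDA, NMDA, clodronate+saline and saline, against 7837, 7831, 10743 and 13447 CPM in other barcodes. In NMDA a globin-rich barcode had a median of 3 such UMIs (range 0 to 73), and 8 had none. The median share of non-globin UMIs was 0.368% in globin-rich and 0.708% in other barcodes. The 3 barcodes with at least 5000 non-globin UMIs had 173, 152 and 24 globin UMIs and the highest retinal counts, 43, 72 and 73 UMIs. Their median retinal share was 0.833% of non-globin UMIs. The highest share in NMDA, 2.32%, was in a shallower barcode with 33 retinal UMIs. The part of these transcripts in the profile was not tested. Without the barcodes under 10% globins, 474 genes were higher and 347 lower by edgeR, and the calls on the 4 erythroid lists were 7, 10, 5 and 5 higher genes.

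The 10 lower genes named by size were FAT3, NAV3, NEK6, MCTP1, CARTPT, GCG, AQP1, SLC2A13, IER5L and CCK. CCK, GCG and CARTPT encode neuropeptides or their precursors, and FAT3 is a cadherin that shapes amacrine cells in mouse. All 10 had 0 UMIs in globin-rich barcodes of all 4 libraries, which outside NMDA is little information, since the counting interval of FAT3 reaches 5.87-fold higher in clodronate+saline and 7.82-fold in saline. FAT3 stood at 86.5, 76.3, 131 and 138 CPM in other barcodes of clodronate+NMDA, NMDA, clodronate+saline and saline, and CCK at 243, 53.3, 43.2 and 18.8 CPM. By the limit of 3 UMIs in globin-rich barcodes of NMDA, FAT3 was at least 3.09-fold lower and CCK at least 2.16-fold lower. Of the 184 lower genes, 60 had 0 UMIs in all globin-rich barcodes. The lower genes of the retinal lists included TGFB2 of Müller glia, TFAP2A of amacrine cells and OLIG2 of oligodendrocytes. All 10 named genes lost the edgeR call without the NMDA library and with only the barcodes of at least 50% globins, where fewer UMIs were summed.

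Globin-rich barcodes of the libraries were compared gene by gene where at least 20 UMIs were summed over the pair, with conditional intervals from the counts. Between NMDA and saline, 8 of 1140 genes were higher in NMDA (0.702%) and 52 lower (4.56%), from 102 and 5 barcodes. These barcodes held 121467 and 3416 non-globin UMIs, so a higher call needed far more UMIs than a lower one. PPIA was called higher with 196 UMIs against 0, and MRPL24 lower with 21 against 5. Nothing is read from the split of calls. VIM, a cytoskeletal protein of red cells and Müller glia, had 301 against 1 UMIs, ALDOC 302 against 2 and GAPDH 643 against 9, the last 2 being glycolytic enzymes. PPIA and FABP9 had 196 and 152 UMIs in NMDA and 0 in saline. Other barcodes differed in the same direction for some of these genes, with a log2 ratio of 5.46 for FABP9 (34316 UMIs in NMDA against 608 in saline) and 1.01 for VIM, and 1 NMDA barcode held 97 of the 301 VIM UMIs. The part of these transcripts from other cells was not tested. The genes lower in NMDA by the interval included IFIT5, OASL and IFI6, with log2 ratios of -3.29, -2.44 and -2.12. Of their saline UMIs, 1 barcode, the one with 65 interferon UMIs, held 16 of 17, 23 of 24 and 19 of 21. In other barcodes these 3 genes were higher in NMDA, with log2 ratios of 2.35, 3.46 and 1.55. BNIP3L had 45 UMIs in NMDA against 9 in saline, a log2 ratio of -2.83 (interval -3.88 to -1.61), and MRPL24 21 against 5.

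Between clodronate+saline and saline, 3 of 41 genes were higher (7.32%) and 11 lower (26.8%), from 7 and 5 barcodes. IFI27L2 had 82 against 32 UMIs, a log2 ratio of 0.86 (95% interval 0.256 to 1.499). UBB, a ubiquitin gene, had 70 against 31. For IFI27L2, 1 barcode held 33 of the 82 UMIs in clodronate+saline, and 1 held 15 of the 32 in saline. Other barcodes had a log2 ratio of 4.20 for IFI27L2 (943 against 43 UMIs) and -0.067 for UBB. The part of IFI27L2 transcripts from other cells was not tested. RPLP1, RPL9 and RPSAP58, ribosomal genes by name, had 15 against 50, 4 against 16 and 5 against 17 UMIs, and the saline barcode with 30.2% ribosomal UMIs held 52.9% of the ribosomal UMIs in saline. IFIT5 and OASL were also lower, and 1 saline barcode held 23 of the 24 OASL UMIs of saline. In other barcodes both genes were higher in clodronate+saline, with log2 ratios of 4.85 and 7.10. The 1 barcode of clodronate+NMDA gave 475 non-globin UMIs, too few to compare genes. By the interval 17 of 1116 genes were higher than in NMDA (1.52%), among them ERLEC1 with 2 UMIs, and 1 was lower (0.0896%). Against clodronate+saline, 0 of 18 genes were higher (0%) and 2 lower (11.1%). Nothing is read from these counts of a single barcode.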

How the data were processed

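The deposited files held UMI counts per gene and barcode, 1 matrix for each of 4 libraries, which the authors made with 10x Genomics Cell Ranger (version 7.0.1 and build GRCg7b in the submitters' processing notes). Cell calling preceded deposit, and the counts were neither normalized nor corrected for free RNA. The tables had 30108 gene rows, 29839 by symbol after rows with 1 symbol were summed. No doublet caller was run and no doublet was removed.

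Groups came from the labels. The members and gene lists were chosen with earlier results of these data known. Shares have exact Clopper-Pearson intervals (95%), and ratios between libraries have conditional binomial intervals, both for counting error only. Counts were summed over globin-rich and other barcodes per library, without the rule's globins, and tested with edgeR 4.0.16 (quasi-likelihood, library as a term, Benjamini-Hochberg, FDR threshold 0.05) in R 4.3.3. TMM factors came from sums pooled over libraries, a choice made after a test on simulated data in which a factor for each sum recovered 6% of 50 genes raised 16-fold, against 100% with pooled sums (14382 genes tested). With pooled sums, 48% of 4-fold higher, 24% of 4-fold lower and 42% of 16-fold lower genes were recovered, and 0.606% of unchanged genes were called. The simulated globin-rich sums were drawn from the profile of other barcodes, with as many genes raised as lowered. They held no contrast between cell types, so the simulation does not show which scaling suits the data. Tables and figures were made with Python 3.11.15, numpy 2.4.6, pandas 2.3.3, scipy 1.17.1 and matplotlib 3.10.9.

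Genes named by size were the 15 higher and 10 lower genes of largest fold change with a symbol, an FDR under 0.05 and the same sign in all 4 libraries. Between libraries they were the 5 each way whose interval lay farthest from 0, among genes with at least 20 UMIs in the pair. Genes of the lists were named with at least 20 UMIs in globin-rich barcodes. Those with fewer, called or not, were chosen after their values were seen. Alternatives were library totals, DESeq2 1.42.0, no filter on low counts, other globin minimums, limits of 200 to 2500 genes, leaving out each library and, added after the data were seen, members of at least 10% globins, a TMM factor for each sum and a robust spread. Some genes of the lists are not reported here.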

Additional observations from a re-analysis of the deposited data

Results flagged for a closer look

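The share of globin-rich barcodes moved in opposite directions with NMDA in the libraries without and with clodronate liposomes. It was 21.3 times as high in NMDA as in saline, and 0.204 times as high in clodronate+NMDA as in clodronate+saline. The second ratio has a counting interval of 0.00452 to 1.59, which includes 1. Each value rests on 1 library, and the difference between the 2 ratios was not tested.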

How the results depend on the processing

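The share of globin-rich barcodes changed with stricter rules. With globins at least 50% of the UMIs it was 0% in clodronate+NMDA, 0.188% in NMDA, 0.0101% in clodronate+saline and 0.0100% in saline. In NMDA it was 0.795% at 50 globin UMIs, 0.554% at 100 and 0.857% with globins at least 5%. The highest class held 31, 3 and 2 barcodes of NMDA, clodronate+saline and saline at 25% globins and 7, 0 and 0 at 75%. As a mean over barcodes, HBA1 was 68.0% of globins in NMDA and 62.2% in saline, HBAD 11.4, 11.5 and 17.6% and HBBA 20.5, 23.2 and 20.2% in NMDA, clodronate+saline and saline. With at least 100 globin UMIs, HBA1 was 57.6% and HBAD 17.8% in NMDA.

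Genes higher numbered 74 with DESeq2, 242 with members of at least 50% globins and 295 with a TMM factor for each sum, and 50 to 544 when a library was left out. Genes lower numbered 299, 351 and 99 under the same 3 settings, 97 with members under 50% globins, 347 with members of at least 10%, and 69 to 214 when a library was left out. Without NMDA, 50 higher and 9 lower calls were shared with the full fit. When a library was left out the log2 fold change ranged from -0.85 to 1.35 for GLRX5, -0.053 to 2.07 for EPB41, -0.93 to 2.03 for DMTN and -12.61 to 1.59 for BPGM, lowest without NMDA in each. BPGM was -0.014 with members under 50% globins, RSAD2 -7.44 with members of at least 50%, and RPLP1 -0.066 with DESeq2 and -0.23 with a TMM factor for each sum. Of 66 genes named as called, 18 kept the call under every alternative that gave a value. Among the 18, EPB42 and TMOD4 had a value in 10 of 15 alternatives and SLC4A1 in 11. Without the NMDA library 61 of the 66 had a value, and 19 kept the call. Causes were not tested.

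Between globin-rich barcodes of NMDA and saline, 2 genes were higher and 2 lower with members of at least 50% globins, and 19 and 27 with globins in the totals. IFI6 had a log2 ratio of 1.30 with members of at least 50%. Between clodronate+saline and saline, 1 gene was higher with members under 50%, 9 with globins in the totals, and 1 lower with members of at least 50%. With globins in the totals, 4 genes were lower in clodronate+NMDA than in NMDA, and 2 were higher and 4 lower than in clodronate+saline. No paired analysis was possible because each group had 1 library and the labels carry no replicate numbers. Depth limited the lower calls, since 3 UMIs in globin-rich barcodes of NMDA equal 24.7 CPM.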
